A study of Mus musculus with 7 samples.

Results

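Genes of the machinery by which a beta cell takes up glucose, senses it and releases insulin were followed in embryonic mouse pancreas at E15.5. The 9 genes, of 27138 features in the count table, were chosen by function: the glucose transporters Slc2a2 and Slc2a1, the glucose-6-phosphatase catalytic subunit G6pc2, the ATP-sensitive potassium (KATP) channel subunits Abcc8 and Kcnj11, the granule zinc transporter Slc30a8, the incretin receptors Gipr and Glp1r, and the maturation peptide Ucn3. All 9 had a row in the table, and 8 had enough counts to be tested. The question put to them was which of these parts are expressed at this stage, in embryos with and without a long non-coding RNA. The 3 cKO embryos carried Pdx1Cre together with the floxed alleles mLINC00673fl/fl, which deletes 2610035D17Rik, the mouse ortholog of LINC00673. The 4 WT embryos carried mLINC00673fl/fl without Cre. All embryos thus had the floxed alleles, and only cKO embryos had Cre, so effects of Cre and of the deletion cannot be told apart. Each library came from the pancreas of an independent animal. Pdx1-Cre acts in the pancreatic epithelium, and the other cells of the organ keep the gene.

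In an adult mouse beta cell, glucose enters through facilitative transporters and is phosphorylated and metabolised. The rise in ATP closes KATP channels, the membrane depolarises, calcium enters through voltage-gated channels and insulin granules fuse with the membrane. Incretin receptors raise cAMP and amplify this release, while zinc pumped into the granule packs insulin into crystals. In the embryonic mouse pancreas endocrine cells are still being born from Neurog3-expressing progenitors, and release of insulin in response to glucose is a property that beta cells gain later, around and after birth. In bulk tissue, fewer cells of a type and less RNA per cell cannot be told apart.

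The 250 bases upstream of the annotated start were read for the members that RefSeq's promoter table (GRCm38.p6) holds, which were Slc2a2, Slc2a1, G6pc2, Glp1r and Ucn3, or 5 of 9. Those of Abcc8, Kcnj11, Slc30a8 and Gipr are not shown. The 4 sequences printed are those of the broadly used transporter Slc2a1 and 3 genes better known from beta cells. The window of the incretin receptor Glp1r is not printed, and it was more GC-rich than that of Slc2a1. Each sequence runs 5′ to 3′ on the gene's own strand. Capitals mark matches, on either strand, to 4 motifs. The E-box, CANNTG, is bound by factors such as Neurod1. The homeodomain core, TAAT, is bound by factors such as Pdx1. The MAF recognition core is TGCTGA. The GC box, GGGCGG, is common in promoters of widely expressed genes. A match on the opposite strand is printed as its reverse complement. The windows lie at chr4:119108495-119108744 (plus strand) for Slc2a1, chr3:28697653-28697902 (plus strand) for Slc2a2, chr2:69210823-69211072 (plus strand) for G6pc2 and chr13:3945350-3945599 (minus strand) for Ucn3.
Slc2a1: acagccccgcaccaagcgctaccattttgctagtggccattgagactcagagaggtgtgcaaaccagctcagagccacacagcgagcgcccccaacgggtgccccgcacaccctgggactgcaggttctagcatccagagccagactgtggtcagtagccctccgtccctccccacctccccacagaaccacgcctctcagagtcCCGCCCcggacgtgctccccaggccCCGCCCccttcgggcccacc
Slc2a2: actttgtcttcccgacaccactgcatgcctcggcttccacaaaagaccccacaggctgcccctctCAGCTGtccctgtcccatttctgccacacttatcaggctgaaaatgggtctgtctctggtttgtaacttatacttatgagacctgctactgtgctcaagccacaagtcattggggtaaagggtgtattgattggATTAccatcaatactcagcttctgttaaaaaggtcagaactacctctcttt
G6pc2: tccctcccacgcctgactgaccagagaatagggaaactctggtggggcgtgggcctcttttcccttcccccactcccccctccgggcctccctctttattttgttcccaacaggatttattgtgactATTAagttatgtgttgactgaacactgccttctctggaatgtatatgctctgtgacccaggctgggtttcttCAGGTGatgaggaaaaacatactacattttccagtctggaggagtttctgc
Ucn3: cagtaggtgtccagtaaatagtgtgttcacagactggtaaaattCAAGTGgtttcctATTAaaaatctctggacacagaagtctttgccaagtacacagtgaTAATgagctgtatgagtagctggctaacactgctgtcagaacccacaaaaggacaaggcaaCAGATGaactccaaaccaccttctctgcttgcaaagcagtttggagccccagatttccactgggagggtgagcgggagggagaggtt

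The Slc2a1 window was the most GC-rich of the 4 printed, with 66.4% G or C, 13 CpG and 2 GC boxes. Those of Slc2a2, G6pc2 and Ucn3 had 47.2%, 50% and 46.4% G or C with 2, 3 and 1 CpG. The Slc2a2 and G6pc2 windows each held 1 E-box and 1 homeodomain core, and that of Ucn3 held 2 of each. The Glp1r window, on chromosome 17, had 73.2% G or C, 26 CpG, 1 E-box and 3 GC boxes. It was richer in G or C, CpG and GC boxes than that of Slc2a1. The 5 windows thus do not set beta cell genes apart from a broadly used one. Across the 32851 windows of the table, 66.2% held an E-box, 54.9% the homeodomain core, 32.7% the GC box and 16.1% the MAF core, and the median window had 52.4% G or C and 6 CpG. The MAF core was in none of the 5 members' windows, which says only that these letters are not there. A TATA box (TATAAA), present in 12.4% of all windows, was not found in the 5 windows either. These matches are letters and not sites of binding.

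The tissue carried markers of a pancreas at this stage: 12 of 12 acinar markers, 10 of 10 pan-endocrine markers and 8 of 8 hormone genes were tested. Ins2 was at 533 to 766 CPM (counts scaled to a common library total) in cKO and at 430 to 780 CPM in WT libraries. Totals ran from 14883918 to 17767373 counts. The targeted 2610035D17Rik had 34, 57 and 41 counts in cKO, against 168, 147, 137 and 125 in WT replicates 1 to 4, and its log2 fold change was -1.76 (SE 0.215; edgeR adjusted p = 0.0902, DESeq2 adjusted p = 1.25e-09). The groups did not overlap for it. The libraries differed in markers of other tissues. Liver markers, whose abundant members include Alb and Afp, summed to 570 to 2240 CPM in cKO and 493 to 1580 CPM in WT, highest in cKO replicate 1 and next in WT replicate 4. Neuron and Schwann cell markers summed to 174 to 1470 CPM in cKO and 146 to 1130 CPM in WT, highest in cKO replicate 1. The hepatocyte and the neuron also express some of the 9 genes, among them Slc2a2 in liver and Abcc8 and Kcnj11 in neurons. Their part in the values given here was not tested, and the log2 change without cKO replicate 1 and WT replicate 4 together is given for each of the 9 genes.

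None of the 8 tested genes passed the threshold between cKO and WT. Each had an adjusted p of 1 by edgeR, with Benjamini-Hochberg adjustment over 16910 features, and 0 of the 8 had an unadjusted p under 0.05. DESeq2 gave an adjusted p of 1 for each as well. Exact two-sided permutation tests of log2 CPM gave p from 0.257 (Slc30a8) to 0.886 (Slc2a1). Over all tested features 0.00591% were past the adjusted threshold, 1.38% had an unadjusted p under 0.05 and 0.0771% were called by DESeq2. Of the 8 genes 4 had a positive fitted log2 fold change and the median was 0.005, beside 46.0% positive and a median of -0.013 over all tested features. The groups overlapped in all 8, while 2.72% of all tested features had groups that did not overlap. A p above the threshold does not show equal levels, and the 95% intervals given for each gene are the range of change these libraries allow.

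**Figure D1:**
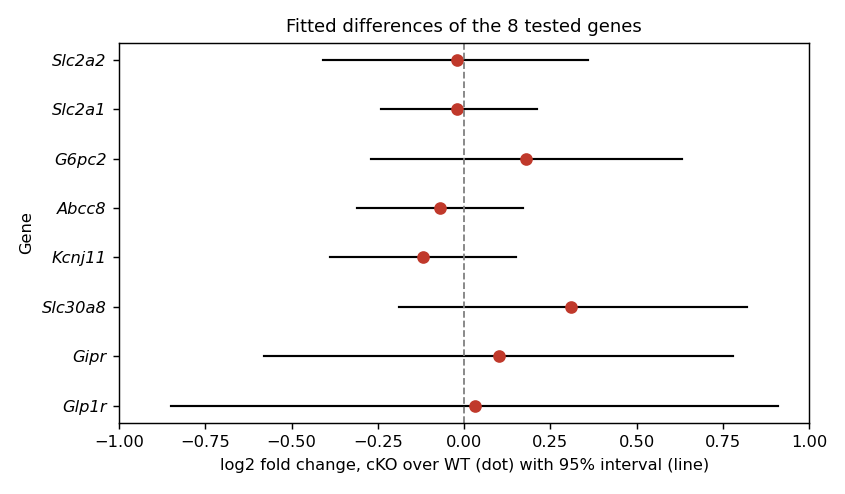
Fitted log2 fold change of cKO over WT for the 8 tested genes (dot) with its 95% interval (line), from edgeR over 3 cKO and 4 WT libraries. Every interval includes 0, and the widths run from Slc2a1 (-0.24 to 0.21) to Glp1r (-0.85 to 0.91).

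Levels of different genes were set side by side as CPM per kilobase of exon. Slc2a1 was the highest at 22.0 CPM per kb (range 19.8 to 25.4 over 7 libraries), above 84.9% of tested features. Abcc8 followed at 14.7 (11.9 to 16.0) and Kcnj11 at 11.9 (9.44 to 13.3), and their ranges overlapped. Slc30a8 (5.59), Slc2a2 (5.23), G6pc2 (4.92) and Gipr (3.72) formed a middle group near the median of tested features, 4.90 CPM per kb, in which each gene's range overlapped that of the next. The ranges of Slc2a1 and Abcc8, of Kcnj11 and Slc30a8, and of Gipr and Glp1r did not overlap. Glp1r (0.297, range 0.177 to 0.499) and Ucn3 (0.228, range 0.0478 to 0.449) lay lowest, above 6.04% and 4.05% of tested features, and overlapped each other. With the longest annotated transcript as the length, Abcc8 was first at 24.4 CPM per kb and Slc2a1 second at 23.7, because the exons of Abcc8 together cover 8090 bases and its longest transcript 4877. In cKO libraries alone G6pc2 stood above Slc2a2 and Ucn3 above Glp1r. Among the 9 genes, 7 were thus above 43.3% or more of tested features and 2 were above 6.04% or less.

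**Figure D2:**
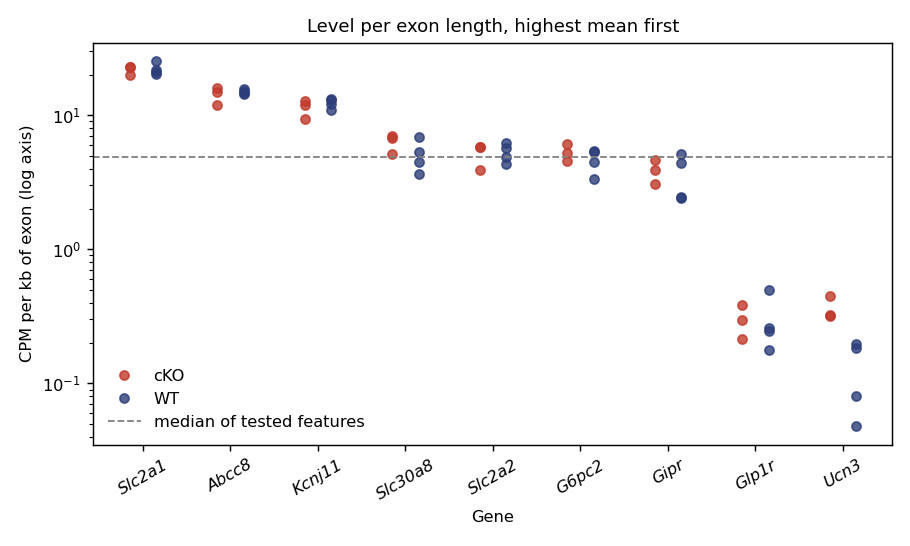
Level of each of the 9 genes in CPM per kilobase of exon (log axis) in every library, cKO and WT. Slc2a1, Abcc8 and Kcnj11 lie at 9.44 CPM per kb or more in every library, and Glp1r and Ucn3 at 0.499 or less.

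Slc2a2, the low-affinity glucose transporter of the adult mouse beta cell and hepatocyte, which is also made by early pancreatic progenitors, had 22.4, 33.5 and 33.5 CPM in cKO replicates 1 to 3, against 28.1, 32.6, 25.1 and 35.5 CPM in WT replicates 1 to 4. The lowest value was cKO replicate 1 and the highest WT replicate 4, so the groups overlapped. The means were 29.8 ± 6.39 CPM in cKO and 30.3 ± 4.65 CPM in WT (SD, n = 3 and n = 4), with a fitted log2 change of -0.02 (SE 0.171) with a 95% interval from -0.41 to 0.36. Without cKO replicate 1 it was 0.15, and without that library and WT replicate 4 it was 0.23, with adjusted p of 1 in both. Slc2a2 lies on chromosome 3 (ENSMUSG00000027690), and an antisense gene that overlaps it, 1700112D23Rik, had 0 to 7 counts a library.

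Slc2a1 is the transporter that most dividing cells and endothelium use and the main one of human beta cells. It had 79.8, 69.3 and 80.4 CPM in cKO, against 71.4, 73.9, 75.9 and 89.0 CPM in WT. It was the steadiest of the 9 genes, its highest library 1.28 times its lowest. The fitted log2 change was -0.02 (SE 0.0993) with a 95% interval from -0.24 to 0.21, with means of 76.5 ± 6.22 CPM in cKO and 77.5 ± 7.84 CPM in WT. The change was 0.02 without cKO replicate 1 and WT replicate 4. Per kilobase it stood 3.40 to 5.85 times above Slc2a2 in each library. It lies on chromosome 4 (ENSMUSG00000028645). Of the other hexose transporters, Slc2a3, the neuronal transporter, was at 3.74 CPM per kb and its ratio to Slc2a2 per kilobase ran from 0.299 to 1.52. That ratio was highest in cKO replicate 1, the library with the most neuron markers, whose part in it was not tested. Among 10 tested genes of this list 0 were called, 7 had a positive and 3 a negative fold change, and the median was 0.06.

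G6pc2, the islet glucose-6-phosphatase subunit that turns glucose-6-phosphate back to glucose and opposes phosphorylation, had 8.93, 12.0 and 10.3 CPM in cKO, against 8.86, 10.6, 6.60 and 10.7 CPM in WT. The lowest library was WT replicate 3 and the highest cKO replicate 2. The means were 10.4 ± 1.52 CPM in cKO and 9.19 ± 1.92 CPM in WT, with a fitted log2 change of 0.18 (SE 0.197) with a 95% interval from -0.27 to 0.63. Without cKO replicate 1 it was 0.29, without WT replicate 3 it was 0.05, and without cKO replicate 1 and WT replicate 4 together it was 0.36 (edgeR adjusted p = 1 in each). G6pc2 lies on chromosome 2 (ENSMUSG00000005232). The ubiquitous paralog G6pc3, named after its values were seen, was 2.73 to 4.54 times higher per kilobase in each library, at 16.5 CPM per kb. The liver and kidney enzyme G6pc had 13 counts in cKO and 17 in WT summed over libraries, and was below the filter. Hkdc1 (10.6 CPM per kb), Hk2 (6.59) and Hk1 (5.14) are hexokinases, and Hk1 and Hk2 are low in mature mouse beta cells. In the list of hexokinases and phosphatase genes 0 of 6 tested were called, 2 had a positive and 4 a negative fold change, with a median of -0.02.

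**Figure D3:**
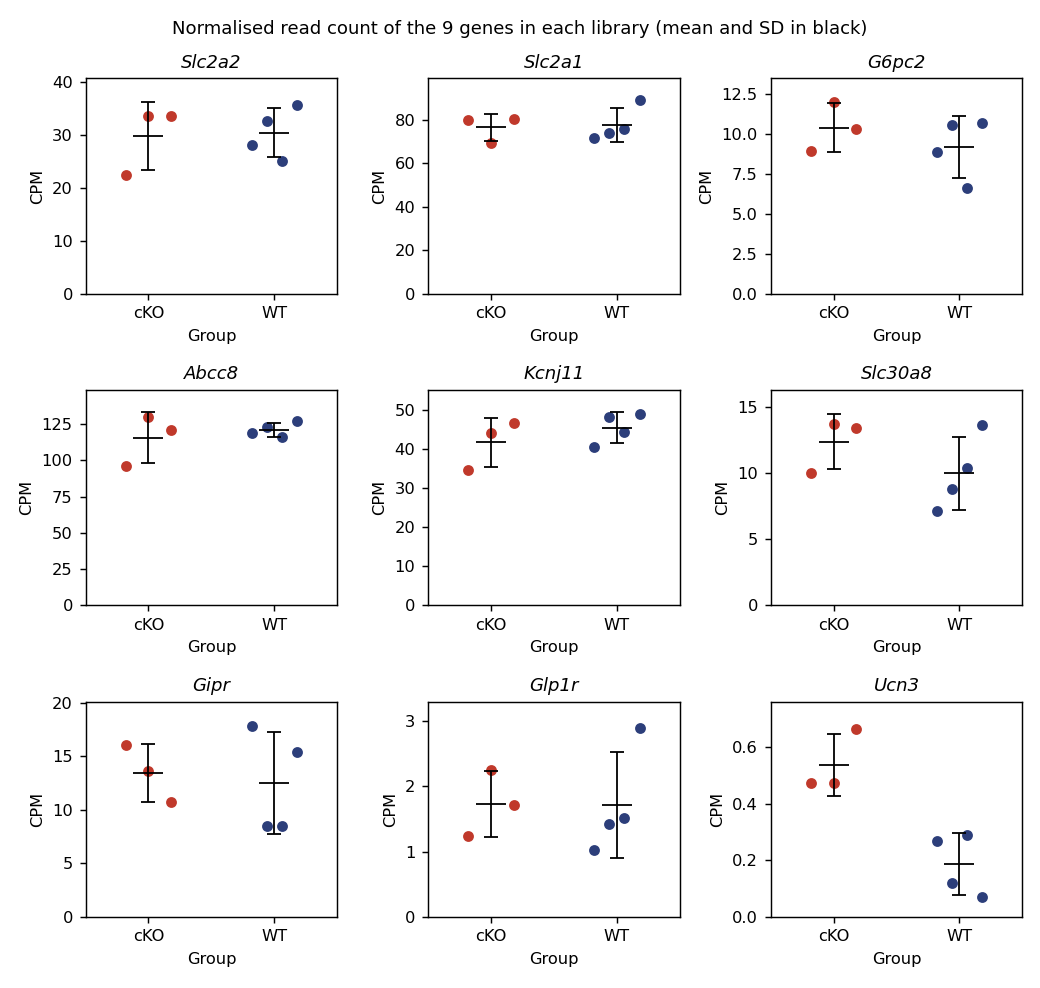
Level of each of the 9 genes in CPM, with a panel for each gene, with each library as a point, cKO left of WT, and the group mean and SD. The groups overlap in every panel but that of Ucn3, where the cKO libraries are at 0.473 to 0.663 CPM and the WT libraries at 0.0707 to 0.290.

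Abcc8 and Kcnj11 encode the sulfonylurea receptor and the pore of the KATP channel that couples metabolism to membrane potential, and on chromosome 7 they are next to each other. Abcc8 (ENSMUSG00000040136) had 96.3, 130 and 121 CPM in cKO, against 119, 123, 116 and 127 CPM in WT. Its lowest value was cKO replicate 1, and the other 6 libraries were within 116 to 130 CPM. The means were 116 ± 17.2 CPM in cKO and 121 ± 4.76 CPM in WT, with a fitted log2 change of -0.07 (SE 0.105) with a 95% interval from -0.31 to 0.17. Kcnj11 (ENSMUSG00000096146) had 34.7, 44.1 and 46.6 CPM in cKO, against 40.5, 48.2, 44.4 and 49.0 CPM in WT. It too was lowest in cKO replicate 1, and the groups overlapped. The means were 41.8 ± 6.28 CPM in cKO and 45.5 ± 3.92 CPM in WT, with a fitted log2 change of -0.12 (SE 0.12) with a 95% interval from -0.39 to 0.15. Without cKO replicate 1 the log2 fold changes were 0.05 for Abcc8 and 0.00 for Kcnj11, and without it and WT replicate 4 they were 0.07 and 0.03.

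Per kilobase Abcc8 was 1.16 to 1.34 times Kcnj11 in the 7 libraries. With the longest transcripts as lengths the ratio was 1.65 to 1.89. The vascular and muscle pair of the channel, Kcnj8 and Abcc9, was in the same range: Kcnj8 was at 16.7 CPM per kb and Abcc9 at 10.3, and Kcnj11 was 0.553 to 0.857 times Kcnj8. Kcnj8 had higher values in each cKO library (43.5 to 46.9 CPM) than in each WT library (38.7 to 43.4 CPM), with a log2 fold change of 0.13 and an edgeR adjusted p of 1. Among 16 tested genes of voltage-gated and other ion channels of the beta cell, 0 were called. Of them 1 had a positive and 15 a negative fold change, and the median was -0.13. That median ran from -0.17 to -0.05 with single libraries left out. Among the negative values, Kcnq1 and Cacnb3 were at -0.02, and the lowest, Scn3a, was at -0.74 with an SE of 0.699. These genes were named after their values were seen. The potassium channel gene Kcnk16 was at 48.8 CPM per kb. For the exocytosis genes 0 of 19 tested were called, 3 positive and 16 negative, with a median of -0.07. That median was -0.22 without cKO replicate 1, -0.26 without it and WT replicate 4, -0.21 without WT replicate 2, and above 0 without cKO replicate 3 (0.06) or WT replicate 1 (0.05). Some of these genes are also neuronal. Snap25, a membrane fusion protein named after its values were seen, had 28.7, 5.33 and 6.41 CPM in cKO, against 27.3, 4.59, 20.4 and 9.12 CPM in WT, high in the libraries where neuron markers were high, whose part in the list's values was not tested. Genes of 1 list share libraries and are not replicates.

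Slc30a8, which loads zinc into insulin granules and lies on chromosome 15 (ENSMUSG00000022315), had 10, 13.7 and 13.4 CPM in cKO, against 7.13, 8.82, 10.4 and 13.6 CPM in WT. WT replicate 1 was lowest and WT replicate 4 lay with the 2 higher cKO libraries. The means were 12.4 ± 2.03 CPM in cKO and 10 ± 2.77 CPM in WT, with a fitted log2 change of 0.31 (SE 0.223) with a 95% interval from -0.19 to 0.82, the largest of the 8. The fold change was 0.49 without WT replicate 4 and 0.63 without it and cKO replicate 1, and the lowest over all alternatives was 0.18. The smallest adjusted p over the members' alternatives was 0.966. Ins2 per kilobase was 59.8 to 115 times Slc30a8. The Golgi zinc transporter Slc30a5, which is made in most tissues, was 2.63 to 4.84 times Slc30a8 per kilobase. In the list of other zinc transporters 0 of 13 tested were called, 4 positive and 9 negative, and the median was -0.03.

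**Figure D4:**
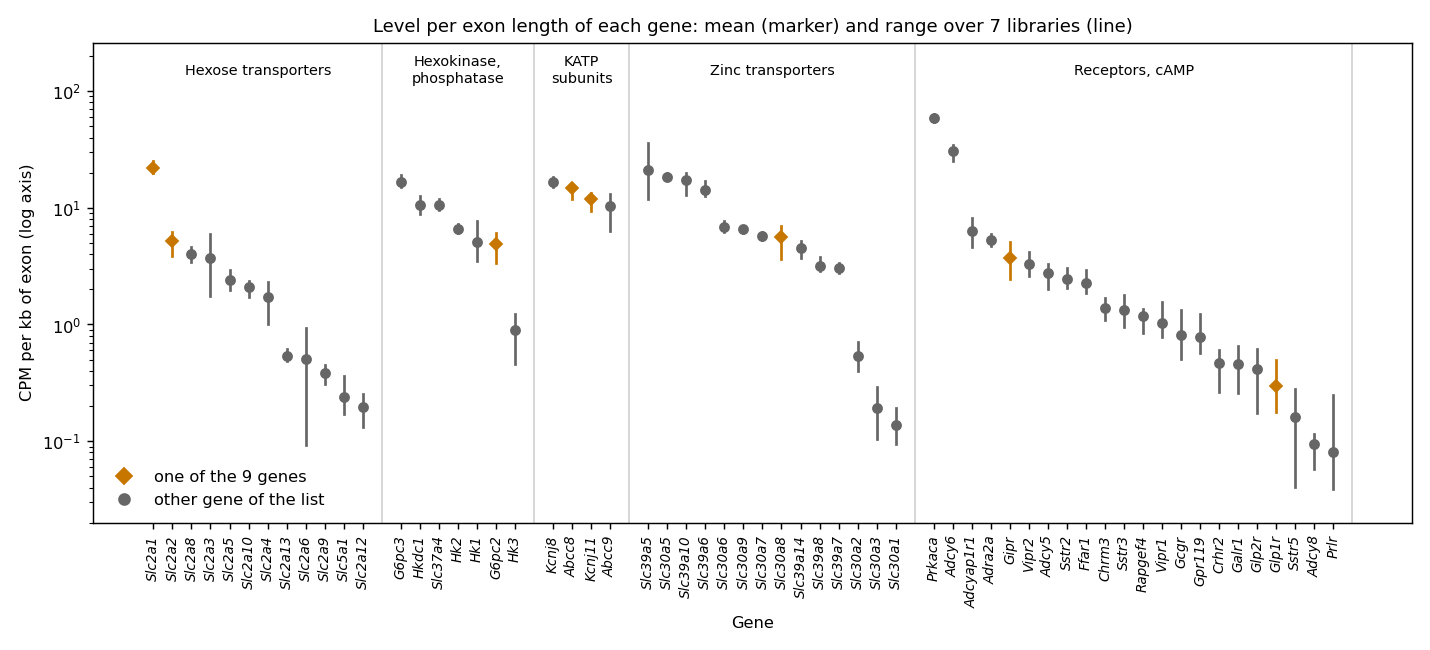
Level of each gene of the 5 pathway groups in CPM per kilobase of exon (log axis), as mean over 7 libraries (marker) and range (line), with members of the 9 as orange diamonds. Genes at 0 in any library are not drawn. Slc2a1 is the highest hexose transporter, and Glp1r is near the low end of the receptors.

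Gipr, the receptor of the incretin GIP, which is made by beta and other endocrine cells, had 16.1, 13.6 and 10.7 CPM in cKO, against 17.8, 8.47, 8.51 and 15.4 CPM in WT. WT libraries alone spanned the whole range, from 8.47 to 17.8 CPM. The means were 13.5 ± 2.74 CPM in cKO and 12.5 ± 4.78 CPM in WT, with a fitted log2 change of 0.10 (SE 0.297) with a 95% interval from -0.58 to 0.78. The change was 0.07 when cKO replicate 1 and WT replicate 4 were left out. Gipr lies on chromosome 7 (ENSMUSG00000030406). Glp1r, the receptor of GLP-1 on chromosome 17 (ENSMUSG00000024027), had 21, 38 and 31 counts in cKO, against 19, 24, 26 and 41 counts in WT. These were 1.24, 2.25 and 1.71 CPM in cKO and 1.03, 1.43, 1.51 and 2.90 CPM in WT, with both extremes in WT. The means were 1.73 ± 0.505 CPM in cKO and 1.72 ± 0.816 CPM in WT, and the fitted log2 change was 0.03 (SE 0.39) with a 95% interval from -0.85 to 0.91. Without WT replicate 4 it was 0.39, and without that library and cKO replicate 1 it was 0.58 (edgeR adjusted p of 0.999 and 1). Genes annotated on the opposite strand, AC174471.1 and AC165951.1, overlap Glp1r, and their part in its few counts was not tested.

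The 2 incretin receptors were thus far apart: per kilobase Gipr was 8.87 to 28.9 times Glp1r in every library. Leaving out single libraries turned the sign of the log2 fold change of both, to -0.04 for Gipr and as low as -0.20 for Glp1r. Among other receptors, Gcgr, the glucagon receptor, was at 0.812 CPM per kb, the fatty acid receptor Ffar1 at 2.27, the adrenergic receptor Adra2a at 5.28 and Adcyap1r1, a receptor of the peptide PACAP, at 6.32. Adra2a was named after its values were seen. The kinase subunit Prkaca, downstream of cAMP, was at 59.3 CPM per kb. Over the receptors and cAMP effectors 0 of 20 tested genes were called, 7 positive and 13 negative, with a median of -0.05. Over all 7 lists of the pathway, 0 of 86 tested genes were called, 25 had a positive and 61 a negative fold change, and 5 (5.81%) had groups that did not overlap. Over all tested features 46.0% had a positive fold change and 2.72% had groups that did not overlap. Those 5, named after their values were seen, were Slc5a1 and Kcnj8, higher in cKO, and Slc37a4, Rims2 and Prkaca, lower in cKO.

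Ucn3, a peptide that marks mature mouse beta cells and comes on late in their development, was the member with the fewest reads. It lies on chromosome 13 (ENSMUSG00000044988) and had 8, 8 and 12 counts in cKO, against 5, 2, 5 and 1 counts in WT, or 28 counts in cKO and 13 in WT. Every cKO library was above every WT library: 0.473, 0.474 and 0.663 CPM in cKO, against 0.27, 0.119, 0.29 and 0.0707 CPM in WT. The means were 0.537 ± 0.11 CPM in cKO and 0.187 ± 0.109 CPM in WT. The exact two-sided permutation test over the 35 divisions of the libraries gave p = 0.0286, the smallest it can give. With no filter on low counts, edgeR gave a log2 fold change of 1.45 with an unadjusted p of 0.0289 and an adjusted p of 0.999, so it did not pass. Among features with 20 to 80 counts over all libraries, 3.01% had every cKO library above every WT library, and 5.17% had groups apart in either direction. Among all features with a count, 1.56% had every cKO library above every WT library. Without the filter 1.65% of all features had an unadjusted p under 0.05 and 0.0147% an adjusted p under 0.05.

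In the same edgeR fit, leaving out single libraries gave Ucn3 log2 fold changes of 1.21 to 1.71, with unadjusted p from 0.025 to 0.103 and adjusted p from 0.952 to 1. Without cKO replicate 1 and WT replicate 4 together the edgeR value was 1.3 (unadjusted p = 0.0788, adjusted p = 1). These fits were added after the counts were seen. Relative to the mean log2 CPM of the pan-endocrine markers, Ucn3 differed by 1.14 between cKO and WT. It was the only member whose groups did not overlap on that scale. Against Chga and Chgb the difference was 1.32, and against the hormone genes 1.02. These values use log2 CPM with a prior count of 2, which draws low counts together, so they cannot be compared with the edgeR fold changes. In log2 CPM with no markers, Ucn3 lay 0.53, 0.53 and 0.93 from its own mean in cKO replicates 1 to 3. In WT replicates 1 to 4 it lay -0.08, -0.79, -0.01 and -1.12 from that mean. Chga and Chgb, which are also in the pan-endocrine list, were highest in cKO replicate 1, WT replicate 1 and WT replicate 3. Chga lay 0.46, 0.41 and 0.21 above its own mean there. The neuron marker Stmn2, named after its values were seen, lay 1.44, 0.87 and 0.75 above its own. The part of neurons in these differences was not tested. Ins2 per kilobase was 905 to 12400 times Ucn3. The Ucn3 counts are few, and its 7 values run from 1 to 12 counts. Among the 13 genes of the maturation list, 11 were tested, 0 were called, 7 were positive and 4 negative, with a median of 0.18, which was 0.07 when cKO replicate 2 was left out and was 0.40 when cKO replicate 3 was. Of these, Mafa, a factor of mature beta cells, had 28.4 ± 6.69 CPM in cKO and 23.3 ± 3.90 CPM in WT, and Ins2 a log2 fold change of 0.30 (SE 0.229). Mafa lay 0.03, 0.52 and -0.08 from its own mean on the log2 scale in cKO replicates 1 to 3, and 0.18 in WT replicate 4. Ins2 was highest in WT replicate 4. Neither gene was called, the groups overlapped for both, and the 4 genes with a negative fold change are not named here. Genes low in mature beta cells had a median of 0.00 over 11 tested, 6 positive and 5 negative.

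Across libraries the members did not vary as 1 group. Slc2a2, Abcc8 and Kcnj11 were lowest in cKO replicate 1, at -0.41, -0.30 and -0.33 from their own means over libraries on the log2 scale. Glp1r was lowest in WT replicate 1 and Slc30a8 as well. In cKO replicate 1 the beta cell transcription factors Pdx1 (-0.51), Nkx2-2 (-0.56), Nkx6-1 (-0.36), Neurog3 (-0.32) and Rfx6 (-0.65), named after their values were seen, were low too, while Ins1 (0.39) and Ins2 (0.43) were high. Of the 12 factors of that list 6 had their lowest value there, beside 25.8% of all tested features. Of the same list, Mafa was at 0.03 in cKO replicate 1. Pax4 was at -0.21 there and had its lowest value in WT replicate 3. Slc2a2, Slc2a1, Kcnj11 and Glp1r were highest in WT replicate 4. The list of these factors had a median log2 fold change of -0.06, with 5 positive and 7 negative of 12 tested, and the hormone genes 0.20 with 7 positive of 8.

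**Figure D5:**
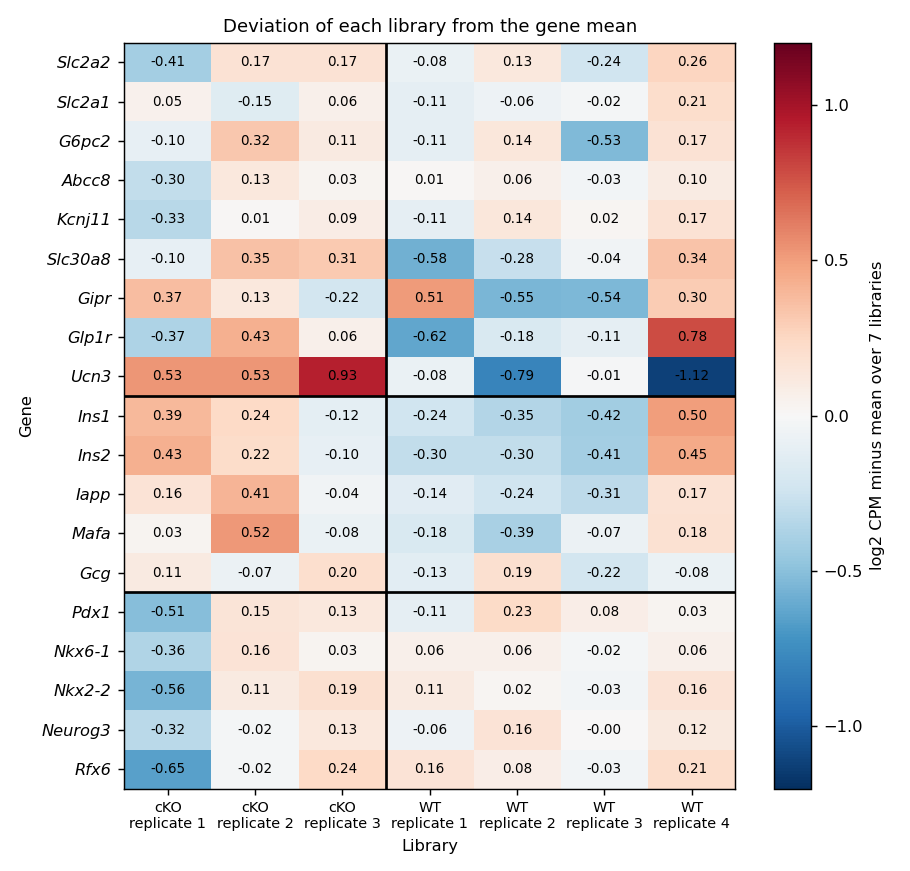
Deviation of log2 CPM from the mean over 7 libraries for the members and selected beta cell genes (rows) in each library (columns, cKO left of WT). In cKO replicate 1 Slc2a2, Abcc8, Kcnj11 and Pdx1 are low, Ins1 and Ins2 are high, and Mafa is at 0.03.

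For 3 members, the features nearest in their deviations of log2 CPM over the 7 libraries were found. They were sought among 11681 features with a mean of at least 5 CPM. The distance depends on the size of a gene's swings between libraries as well as on their pattern. For Slc2a2 they were Slc37a1, Pdk1 and Ptprn2, with root mean square differences of 0.0644, 0.0656 and 0.0793 on the log2 scale. Of the other members in that set, Kcnj11 ranked 72, Abcc8 77, G6pc2 596, Slc2a1 4406, Slc30a8 7846 and Gipr 10955. For Abcc8 they were Anxa11, Xpo6 and Zfp395, at 0.0296, 0.0304 and 0.0343, and Kcnj11 ranked 292, Slc2a2 2217, Slc2a1 5888, G6pc2 7891, Slc30a8 10197 and Gipr 11041. For G6pc2 they were Slc22a15, Btbd17 and Arhgef38, at 0.0944, 0.0996 and 0.111, with Slc2a2 at rank 114, Abcc8 1079, Kcnj11 2898, Slc2a1 4924, Slc30a8 7642 and Gipr 10387. Over the features compared, the median difference was 0.263 from Slc2a2, 0.185 from Abcc8 and 0.29 from G6pc2. The SD over libraries was 0.141 for Abcc8, 0.438 for Gipr and 0.358 for Slc30a8, so a high rank number does not by itself mean an unlike pattern. These are likenesses over 7 libraries that share depth and tissue content.

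Marker lists of other cells set the background for these values. The median log2 fold change was 0.94 for 14 liver markers (13 positive, 1 negative), 0.35 for 12 erythroid markers (11 positive, 1 negative) and -0.06 for 14 neuron and Schwann cell markers (5 positive, 9 negative). It was 0.05 for the 10 pan-endocrine markers, -0.03 for 10 endothelium, -0.05 for 10 smooth muscle and pericyte, 0.01 for 10 mesenchyme and 0.04 for 12 acinar markers. Intestine and stomach markers were mostly below the filter, with 3 of 7 in the table tested and a median of 0.03. No gene of these lists was called by edgeR. DESeq2 called the embryonic globin Hbb-y, named after its values were seen, at 5.37 ± 1.48 CPM in cKO and 16.6 ± 4.46 CPM in WT. The medians without cKO replicate 1 were -1.51 for liver, -0.66 for erythroid and -1.86 for neuron and Schwann cell markers. With WT replicate 4 left out as well they were 0.29, 0.16 and -1.98.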

How the data were processed

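Polyadenylated RNA from the pancreas of 7 embryos was sequenced by the authors with a NEBNext Ultra kit. The labels' protocols describe no step that marks the strand, so antisense genes that overlap a member were not separated from it. Besides those of Slc2a2 and Glp1r, Gm12867 (2 to 6 counts a library) and Gm12868 (0 to 4) overlap Slc2a1. Gm45486 (3 to 19 counts a library) overlaps Abcc8. What the authors deposited is a single table of raw counts for 27138 features, which is not normalized. Per the submitters' processing notes the tools were HISAT2, StringTie and featureCounts and the build mm39, with no roles or versions. The column of WT replicate 4 has another prefix number than the other libraries, whose meaning no label states. Columns were matched to samples by name, and 0 columns were left unused.

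Names, chromosomes and exon lengths came from GENCODE M21 on GRCm38, another build than mm39, so no coordinates of the counts are given. Promoters came from RefSeq, GRCm38.p6. filterByExpr on the group kept 16910 features, which were scaled with TMM (0.952 to 1.04) and tested with edgeR 4.0.16 in R 4.3.3 (glmQLFit robust, glmQLFTest, group as the only term, Benjamini-Hochberg threshold 0.05). SEs and 95% intervals came from the F statistic. Single values had an exact two-sided permutation test over 35 divisions. Alternatives used DESeq2 1.42.0, limma 3.58.1 voom, other scalings, filters and lengths, and libraries left out. log2 CPM used a prior count of 2. Precision is limited by totals of 14883918 to 17767373 counts and by 3 and 4 animals. The fit was tested on simulated counts with the fitted trend of variation. At the adjusted threshold it recovered 28.7% of 1.5-fold, 60.7% of 2-fold, 83.3% of 3-fold and 92.7% of 4-fold changes. No spread of single genes around that trend was simulated, so these shares need not hold for the real libraries. The targeted gene, with a log2 fold change of -1.76, did not pass in edgeR (adjusted p = 0.0902).

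The members, the 20 supporting lists and the tests were chosen with earlier results of these data known. The rule for named genes gave the 9, the targeted gene, the 3 genes of each list with the highest mean CPM, any gene past the threshold, a set of pathway and marker genes such as Kcnj8, Hk1, Gcgr, Mafa, Ins2 and Alb, and for Slc2a2, Abcc8 and G6pc2 the 3 nearest features by deviations of log2 CPM. Those that bear on no comparison are not printed. No label states that replicate numbers pair the embryos, and the main fit treated them as unpaired.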

Additional observations from a re-analysis of the deposited data

How the results depend on the processing

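Of the 8 tested genes 0 were called under all alternatives run, with adjusted p of 0.966 to 1. Over all features 1 was called. That count was 0 when edgeR used the size factors of DESeq2 or plain totals, when 1 CPM in 3 libraries was required and when estimation was not robust; it was 4 with no filter, 13 with DESeq2 and 0 to 3 with single libraries left out; the cause was not tested. Fold changes other than those of G6pc2 and Slc30a8 changed sign with libraries left out. Over single libraries log2 fold changes ran from -0.12 to 0.15 for Slc2a2, -0.06 to 0.05 for Slc2a1, 0.05 to 0.29 for G6pc2, -0.16 to 0.05 for Abcc8, -0.21 to 0.00 for Kcnj11, 0.18 to 0.49 for Slc30a8, -0.04 to 0.32 for Gipr and -0.20 to 0.39 for Glp1r. Without WT replicate 4 and cKO replicate 1 together they were 0.23 for Slc2a2, 0.02 for Slc2a1, 0.36 for G6pc2, 0.07 for Abcc8, 0.03 for Kcnj11, 0.63 for Slc30a8, 0.07 for Gipr and 0.58 for Glp1r. The order by level per length kept 5 of 9 ranks in cKO libraries alone. Relative to pan-endocrine markers 5 of 9 genes were higher in cKO, 9 with Chga and Chgb as markers and 4 to 8 with single libraries left out. Chga and Chgb were highest in the libraries where the neuron marker Stmn2 was highest, and the part of neurons in these counts was not tested.

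With the replicate number as a block over replicates 1 to 3, 13 features were called, and the log2 fold changes of Slc2a2 and Slc2a1 were both 0.04 and that of Slc30a8 was 0.49 (unadjusted p = 0.015 in edgeR). Same-numbered libraries correlated at 0.284, 0.419 and 0.06 in their deviations from the group means. Libraries of unlike number ran from -0.522 (cKO replicate 1 with WT replicate 2) to 0.296 (cKO replicate 3 with WT replicate 2). No label states whether a number marks a shared litter or day, and pairing was not tested. Counts of 1 to 12 reads limit Ucn3 and 19 to 41 limit Glp1r.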
